A study of Homo sapiens with 38 samples.

Results

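The 40 nuclear tRNAs described here are the rows of the deposited small RNA count table that carry a tRNA prefix and belong to none of the 9 anticodons Gly-GCC, Gly-CCC, Glu-CTC, Glu-TTC, Lys-CTT, Val-CAC, Val-AAC, His-GTG and Asp-GTC. They are 40 of the 49 nuclear tRNA rows, in a table of 22549 features. Each row is 1 anticodon and pools its gene copies, from 1 to 29 loci per row and 337 loci in all, and the rows cover 19 amino acid names, with the initiator iMet and selenocysteine (SeC) counted as names of their own. The rule used names alone and no measured value.

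The RNA was released by DiFi cells, a human colorectal cancer line, and demethylated with AlkB enzymes before small RNA sequencing. All libraries come from this 1 line. 2D libraries were made from cells on plates, in 3 medium pools of 1360 mL collected after 48 h without serum, and 3D libraries from hollow-fibre bioreactors, in 4 pools of about 400 mL that were divided between isolation methods. Ultracentrifugation (UC) gave a supermere pellet (the smallest non-vesicular particles), an exomere pellet (larger non-vesicular particles) and a small extracellular vesicle (sEV) pellet, with 3 libraries each from 2D and from 3D culture. Size-exclusion chromatography (FPLC) of 3D medium gave supermeres and exomeres, with 4 libraries each. A cushioned density gradient of 3D medium gave the pooled fractions 12, 9_10 and 6_7, with 4 libraries each. The labels do not say which of these fractions hold vesicles. Culture comes with a different medium volume, serum state and harvest, so culture and these cannot be told apart. Which medium pool a replicate letter stands for is not stated, so every p-value refers to the spread among libraries, part of which may be technical.

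tRNAs are short folded RNAs that bring amino acids to the ribosome, and the anticodon decides which codons each one reads. Cells also cut tRNAs into fragments, and whole tRNAs and fragments are both known in extracellular RNA. Methylated bases in a tRNA can stop reverse transcription, and AlkB enzymes remove several of them. tRNA-iMet starts every protein, tRNA-SeC places selenocysteine at selected UGA codons, and the tRNAs for leucine, serine and selenocysteine have a long variable arm (class II), which the others lack.

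The sequences of the tRNAs on which the results turn are printed below 5′ to 3′ as the deposited table gives them, as DNA letters with introns removed and with the anticodon in capitals. Each is 1 copy of its row, which can pool copies of other sequences, and the locus named is 1 that carries it (GRCh38). Lys-TTT is shown because it was the most abundant of the 40 in 25 of 37 libraries, Gly-TCC and Val-TAC because they led 2D vesicles, iMet because it led 2 of the 3D vesicle libraries, and Tyr-GTA because it led 2D supermeres. SeC fell most in 2D particles. Ile-GAT is shown because it differed widely across fractions, and Ser-TGA is set beside Ser-CGA, since they are near copies of each other. Arg-TCT rose in gradient 9_10, Thr-TGT led a 3D exomere library, and Ala-TGC rose as a share in 3D supermeres.
tRNA-Lys-TTT: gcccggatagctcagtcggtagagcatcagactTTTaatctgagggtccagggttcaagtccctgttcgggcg
tRNA-Gly-TCC: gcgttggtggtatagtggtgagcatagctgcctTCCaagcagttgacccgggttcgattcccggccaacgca
tRNA-Val-TAC: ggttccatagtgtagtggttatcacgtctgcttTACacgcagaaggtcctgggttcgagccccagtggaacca
tRNA-iMet-CAT: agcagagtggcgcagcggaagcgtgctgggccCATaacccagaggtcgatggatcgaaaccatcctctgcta
tRNA-Tyr-GTA: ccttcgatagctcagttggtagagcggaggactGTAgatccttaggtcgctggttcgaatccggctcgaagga
tRNA-SeC-TCA: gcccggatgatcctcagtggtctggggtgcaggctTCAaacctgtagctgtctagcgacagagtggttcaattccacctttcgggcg
tRNA-Ile-GAT: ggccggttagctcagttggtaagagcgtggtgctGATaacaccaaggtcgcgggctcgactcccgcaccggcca
tRNA-Ser-TGA: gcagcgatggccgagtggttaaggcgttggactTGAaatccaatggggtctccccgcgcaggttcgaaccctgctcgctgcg
tRNA-Ser-CGA: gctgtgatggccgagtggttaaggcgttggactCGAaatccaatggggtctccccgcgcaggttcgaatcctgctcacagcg
tRNA-Arg-TCT: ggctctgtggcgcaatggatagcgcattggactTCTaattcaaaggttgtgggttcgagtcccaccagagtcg
tRNA-Thr-TGT: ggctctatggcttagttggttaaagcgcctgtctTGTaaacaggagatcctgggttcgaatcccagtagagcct
tRNA-Ala-TGC: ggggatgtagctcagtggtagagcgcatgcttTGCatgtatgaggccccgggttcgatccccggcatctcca

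The Lys-TTT copy lies at chr1:204506527-204506599 on the plus strand and is shared by 5 of its 12 loci. The Gly-TCC copy lies at chr1:146037061-146037132 (plus), the iMet copy at chr1:153671250-153671321 (plus) and the Val-TAC copy at chr11:59550629-59550701 (minus). The Tyr-GTA copy lies at chr6:26568858-26568948 (plus) and loses an 18-nt intron, and all 13 Tyr-GTA loci carry introns. The SeC copy is the only one of its row and lies at chr19:45478601-45478687 (minus), within an intron of ERCC1 on the same strand. The Ile-GAT sequence is the same at all 3 of its loci, of which chrX:3838377-3838450 (minus) lies within an intron of the lincRNA BX890604.2. The 2 serine copies lie at chr10:67764503-67764584 (plus, TGA) and chr17:8138881-8138962 (minus, CGA). Arg-TCT lies at chr9:128340076-128340166 (minus, with an 18-nt intron), Thr-TGT at chr6:28474552-28474625 (minus) and Ala-TGC at chr5:181206868-181206939 (plus). Apart from SeC and Ile-GAT, the printed loci lie in no annotated gene of GENCODE v29.

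Several of the 40 cannot be told apart by a short read. 18 of them share their first or last 25 bases with another tRNA row, among them the 3 alanine rows, Leu-AAG with Leu-TAG, Arg-CCG with Arg-TCG, the 3 proline rows and Ser-AGA with Ser-TGA, and 22 share neither end. Only exact matches were counted here. Of the values of the 40 rows, 71.4% were not whole numbers (tolerance 1e-06), also in rows that share neither end, and how reads were divided was not tested. Ser-TGA and Ser-CGA, both 82 nt long, differ at 6 positions, of which 2 are in the first 25.

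Total counts per library ran from 81079 to 16991360, apart from 3D UC supermere A, which holds 46 counts and 2 nuclear tRNA counts. It stands outside every mean and range of counts, CPM and shares given here, so that 3D UC supermeres have 2 libraries there. That library stayed in the tests, apart from those with nuclear tRNA totals as library sizes, and was left out in an alternative. The floor of 3 counts lay between 0.177 and 37.0 CPM (counts scaled to the same total in every library), highest in gradient 9_10, whose libraries were the smallest. The epithelial miRNA hsa-miR-200c-3p reached 8158 to 13133 CPM in 2D sEV and 4813 to 6421 CPM in 3D sEV. It was low in supermeres, with 1.69 to 8.21 CPM in 3D UC, 2.55 to 33.1 CPM in FPLC and 23.9 to 72.0 CPM in 2D UC. The intestinal hsa-miR-192-5p was not as low, with 2752 to 2978 CPM in 2D UC supermeres and 48.9 to 590 CPM in 3D UC supermeres. In 2D UC supermeres hsa-miR-194-5p had 86.6 to 134 CPM, hsa-miR-215-5p 73.9 to 91.9 CPM and hsa-miR-141-3p 67.3 to 133 CPM. The red cell miRNA hsa-miR-451a stayed at or below 8.25 CPM in all libraries. The liver miRNA hsa-miR-122-5p reached 56.0 CPM in 2D supermeres, and the endothelial miRNA hsa-miR-126-3p reached 61.7 CPM in gradient 9_10.

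By group mean, the share of the 40 among all nuclear tRNA counts was lowest in 2D UC sEV (3.86%) and highest in 3D UC supermeres (73.7%, 2 libraries). FPLC supermeres, also from 3D medium, had a mean of 43.3%. It was 82.2% and 65.2% in 3D UC supermeres B and C, 32.7%, 26.7% and 69.8% in 3D UC exomeres and 12.3%, 30.3% and 40.6% in 3D UC sEV. In 2D culture it was 42.0%, 40.8% and 59.6% in supermeres, 20.8%, 25.7% and 44.9% in exomeres, and 3.79%, 3.59% and 4.21% in sEV. The 2D particle libraries all lay above the 2D sEV libraries, 3D UC supermeres lay above 3D UC sEV, and 3D UC exomeres overlapped with 3D UC sEV. In the gradient the share was 54.8%, 71.4%, 56.4% and 60.0% in fraction 12, 30.9%, 28.4%, 40.6% and 16.4% in fractions 9_10, and 11.5%, 15.1%, 7.14% and 7.75% in fractions 6_7, with no overlap between neighbouring pools. FPLC supermeres had 35.2%, 33.96%, 30.7% and 73.5%, and only D lay above every 3D UC sEV library. FPLC exomeres had 63.7%, 19.9%, 19.7% and 13.04%. Supermere D and exomere A stood apart within these 2 groups. For a gradient 12 library with 4377 tRNA counts, the 95% Wilson interval of the share ran from 54.9% to 57.8%, which covers counting error only, because reads were not collapsed to molecules. These shares are a description, with no test.

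As a level, the same 40 rows ran the other way in 2D culture. Summed, they took 1346 ± 149 CPM in 2D UC supermeres, 2001 ± 1299 CPM in 2D UC exomeres and 8011 ± 1271 CPM in 2D UC sEV (SD, n = 3 each). The 9 other anticodons took 795 to 2044 CPM in 2D supermeres, 3434 to 5019 CPM in 2D exomeres and 183035 to 212849 CPM in 2D sEV. The 40 thus had lower CPM in 2D particles while they were a larger part of the tRNA counts there. CPM are relative within a library, so more of a tRNA and less of other RNA cannot be told apart. In the gradient their sum was 2961 ± 2038 CPM in fraction 12, 64960 ± 37341 CPM in fractions 9_10 and 21843 ± 6626 CPM in fractions 6_7 (SD, n = 4 each).

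**Figure D1:**
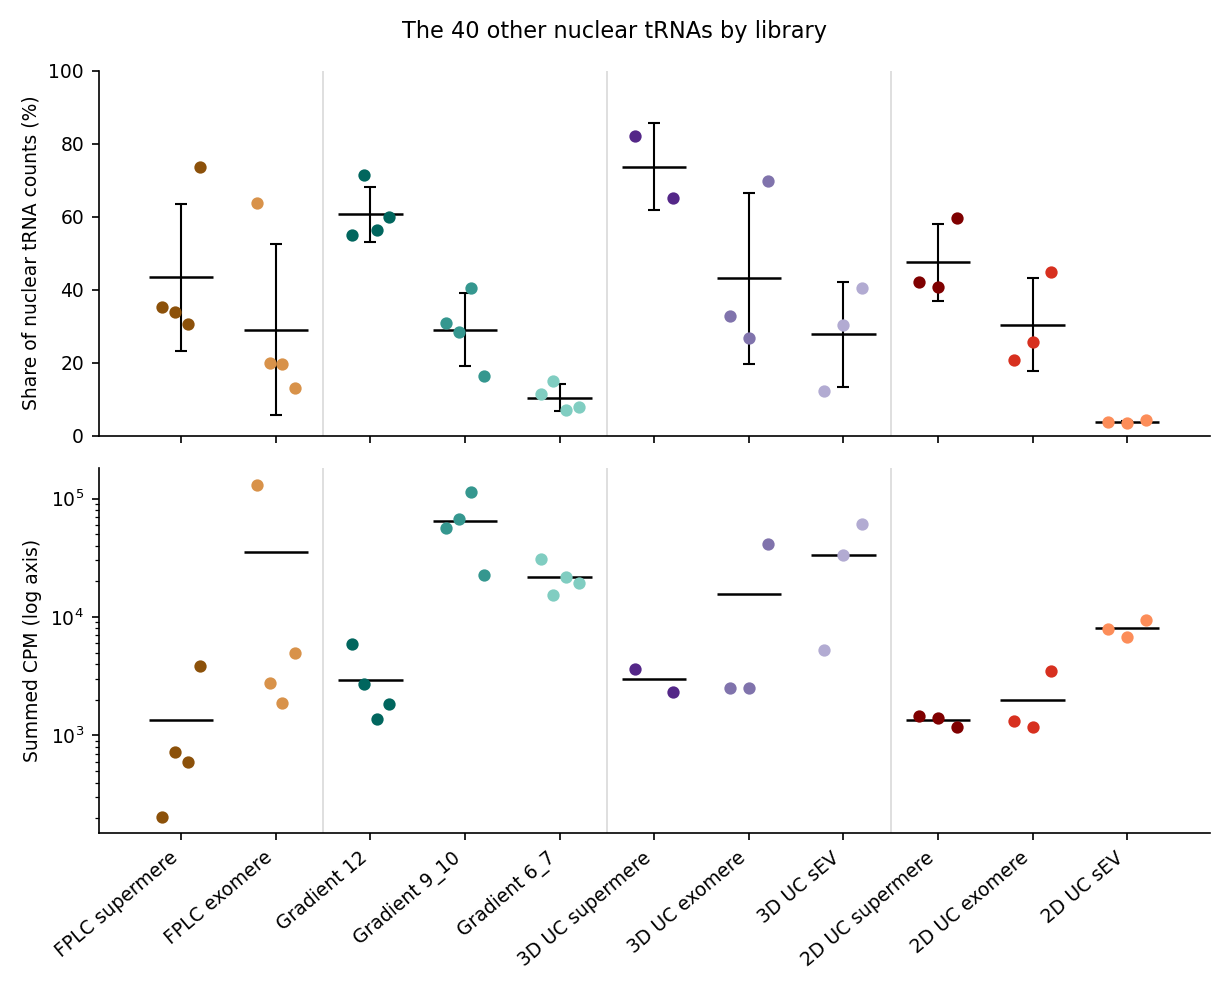
The upper panel plots the share of nuclear tRNA counts (%) in the 40 tRNAs, and the lower panel their summed CPM on a log axis, with 1 point per library for 37 libraries in 11 groups. Lines are group means and error bars are SD (upper panel only); 2D UC sEV lies at 3.86 ± 0.314% in the upper panel and at 8011 CPM in the lower.

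The makeup of the 40 differed by fraction and culture. Gly-TCC, Val-TAC and Cys-GCA together made up 54.9 to 58.5% of the 40 in 2D sEV and at most 30.1% in every other library. Lys-TTT made up 76.9% of the 40 in 3D exomere C, 57.5% in 2D exomere C and 46.4% in FPLC exomere A. The 2 tyrosine rows held 25.2 to 31.8% in 2D supermeres, and the 3 alanine rows held 40.03% in 3D supermere B and 28.1% in 3D sEV A. Isoleucine rows held 17.1 to 27.0% in gradient 6_7 and 29.6% in gradient 9_10 A. Initiator and elongator methionine tRNAs together held 18.0% and 17.7% in 3D sEV B and C. The class II rows held 44.3% in gradient 12 B, where Leu-CAG led with 17.4%.

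**Figure D2:**
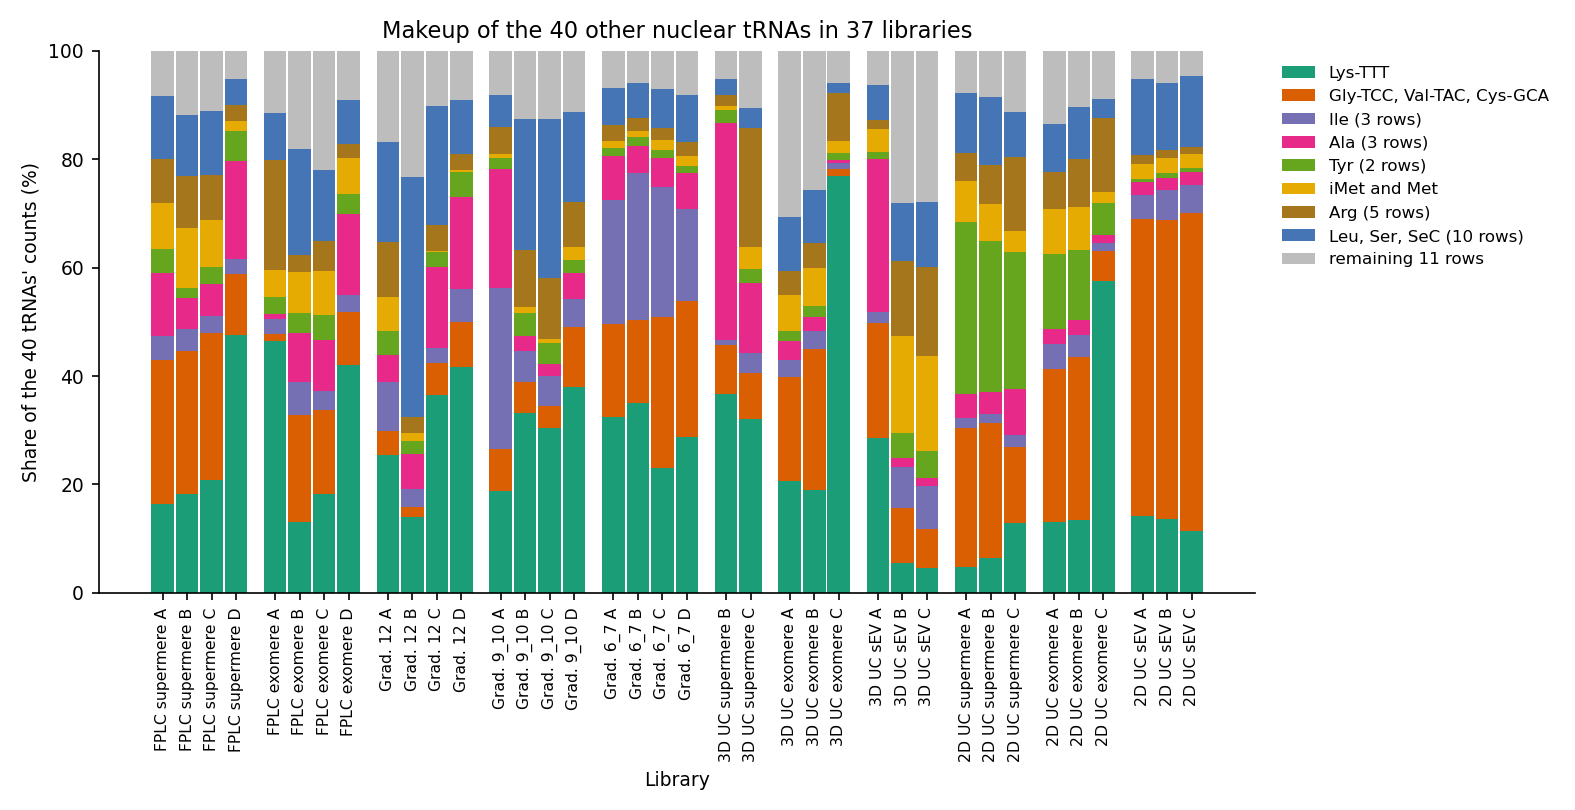
Stacked bars give the share (%) of the 40 tRNAs' counts held by 8 sets of rows and by the remaining 11 rows, with 1 bar for each of 37 libraries grouped by fraction. The orange band of Gly-TCC, Val-TAC and Cys-GCA fills 54.9 to 58.5% of the 2D UC sEV bars, and the Lys-TTT band fills 76.9% of 3D UC exomere C.

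Replicates of 1 group were not alike in this pattern. Over the 40 rows, the Spearman correlation of CPM was 0.988 between 3D sEV B and C, 0.437 between A and B and 0.390 between A and C, while 2D sEV libraries lay at 0.977 to 0.984 with each other. 3D exomeres A and B had 0.930, and C had 0.590 with A and 0.676 with B. FPLC exomere A had 0.296, 0.375 and 0.337 with its own group, but 0.837 with 3D exomere C and 0.843 with 3D sEV C. Gradient 9_10 A had 0.605 with 9_10 B and 0.870 with gradient 6_7 A. These values compare rows within pairs of libraries and carry no test, since rows of 1 library share its depth. 38 of the 40 rows were highest of their group in FPLC exomere A, with a median ratio of 30.5 to the mean of the other 3, and 34 of the 40 were lowest of their group in 3D sEV A, with a median ratio of 0.0454.

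**Figure D3:**
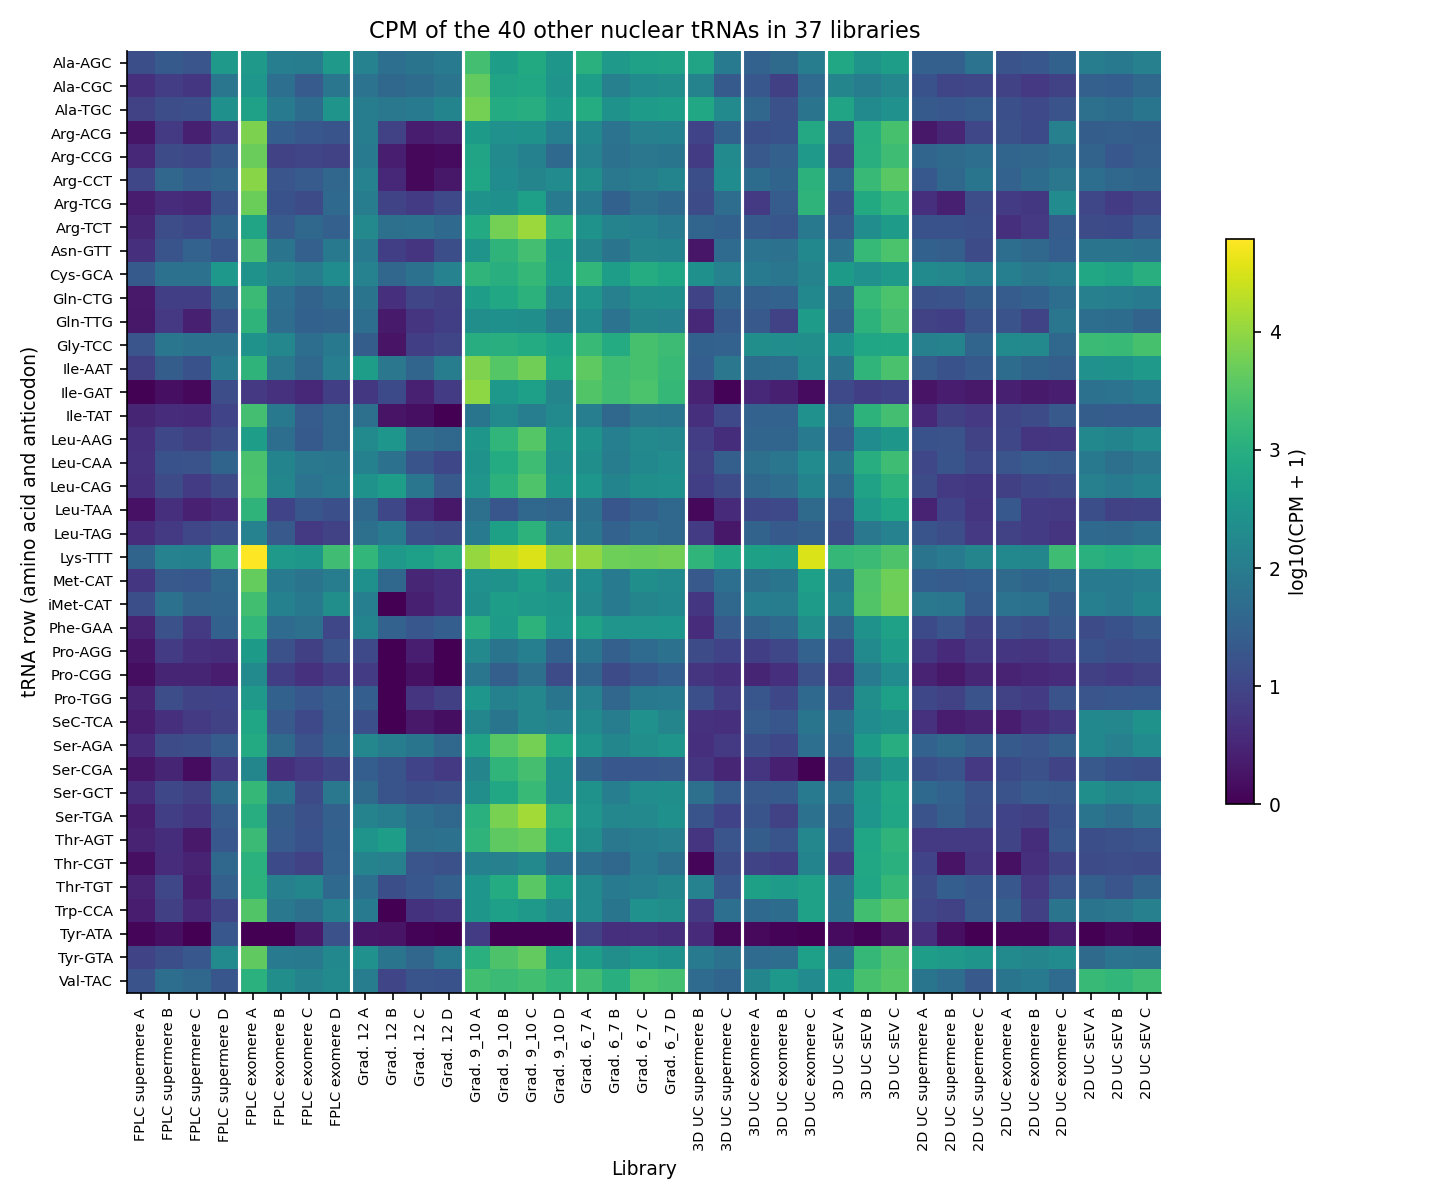
Each cell gives log10(CPM + 1) of 1 of the 40 tRNA rows (down) in 1 of 37 libraries (across), with white lines between groups. The Lys-TTT row is brightest in FPLC exomere A (60781 CPM), and Ile-GAT is bright in gradient 6_7 (1516 to 3069 CPM) and 9_10 A and dark in particle libraries.

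tRNA-Lys-TTT, a lysine tRNA, had the highest typical level of the 40, the mean over groups of the group median being 2607 CPM. It had 33.8, 132, 125 and 1846 CPM in FPLC supermeres and 60781, 364, 343 and 2094 CPM in FPLC exomeres. It had 1498, 379, 505 and 769 CPM in gradient 12, 10668, 22309, 34418 and 8552 CPM in 9_10, and 10001, 5325, 5066 and 5569 CPM in 6_7. Gradient 12 lay below both other pools in every library. In 3D UC material it had 1339 and 749 CPM in supermeres, 519, 483 and 31887 CPM in exomeres and 1503, 1848 and 2821 CPM in sEV. In 2D it had 68.3, 91.3 and 151 CPM in supermeres, 172, 158 and 2013 CPM in exomeres and 1106, 932 and 1072 CPM in sEV. 1 exomere library of each isolation (2D C, 3D C and FPLC A) thus exceeded its fellows, and the exomere ranges enclosed those of sEV in both cultures.

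Differences were tested with edgeR's quasi-likelihood test (TMM scaling, Benjamini-Hochberg adjusted p below 0.05 over 7009 features, all 40 rows included), and fold changes are log2. The same test was also run with nuclear tRNA totals as library sizes, where a fold change is a change in share of tRNA counts. 3D UC supermere A was not in that run. Counts of rows whose CPM did not overlap only describe the 40. The share of all features without overlap is not given, so they were not compared with a background. Counts from DESeq2, no filter, a replicate block or libraries left out also come without the share of all features.

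In 2D exomeres against 2D sEV, 18 of the 40 tRNAs fell and 0 rose, where 7.95% of all features fell and 0.628% rose. Their median log2 fold change was −2.75, against 0.10 over all features. tRNA-SeC had 1.33, 3.12 and 4.78 CPM in 2D exomeres and 169, 163 and 271 CPM in 2D sEV, a log2 fold change of −7.19 (SE 1.196, edgeR adjusted p 1.1e-07). tRNA-Ile-GAT had 1.25 to 1.59 CPM in 2D exomeres and 61.4, 65.9 and 88.9 CPM in 2D sEV, a log2 fold change of −7.01 (SE 1.10, adjusted p 1.7e-08). Neither overlapped between the groups. Leu-AAG, a leucine tRNA, had 9.38, 4.26 and 4.61 CPM in exomeres and 171, 142 and 201 CPM in sEV (−6.43, SE 1.13, adjusted p 5.3e-07). Gly-TCC, the most abundant of the 40 in 2D sEV, had 189, 179 and 41.0 CPM in exomeres and 1828, 1711 and 2458 CPM in sEV, and it fell too (−5.69, adjusted p 1.2e-06). Of the 10 class II rows 8 fell, and of the other 30 rows 10 fell. iMet fell (−2.94, adjusted p 0.019), and that call was lost without any 1 of the 6 libraries. CPM did not overlap for 28 rows, 2 of them higher in exomeres. Without 2D exomere B 11 rows were called. With library totals 10 fell and 0 rose, where 4.25% of all features fell.

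In 2D supermeres against 2D sEV, 13 of the 40 fell and 0 rose, where 8.45% of all features fell and 1.93% rose, and the median was −2.15 against −0.01 over all features. SeC, Ile-GAT and Val-TAC had the largest decreases among rows of at least 50 CPM in sEV, and both 2D comparisons share the sEV libraries. SeC had 3.83, 1.28 and 1.97 CPM in 2D supermeres and 169, 163 and 271 CPM in 2D sEV (−6.86, SE 1.18, adjusted p 2.9e-07). Ile-GAT had 0.805 to 1.37 CPM in supermeres and 61.4 to 88.9 CPM in sEV (−6.40, SE 1.08, adjusted p 1.5e-07). Val-TAC, a valine tRNA, had 70.8, 51.0 and 20.3 CPM in supermeres and 1761, 1477 and 1954 CPM in sEV (−6.11, SE 1.03, adjusted p 1.5e-07). All 3 had every supermere library below every sEV library. 7 of 10 class II rows fell, and 6 of the other 30. This contrast was not the same in the other comparisons. With class II given first, the calls were 7 of 10 and 13 of 30 in 3D exomeres against 3D sEV. They were 9 of 10 and 15 of 30 in 3D supermeres, and 6 of 10 and 11 of 30 in FPLC. They were 2 of 10 and 11 of 30 in gradient 12, and 3 of 10 and 7 of 30 in gradient 9_10. In 3D against 2D sEV they were 5 of 10 and 18 of 30. CPM did not overlap for 32 rows, 30 of them lower in supermeres. Without 2D supermere B 8 rows were called. With library totals 7 fell and 0 rose, where 6.25% of all features fell.

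tRNA-Tyr-GTA, the more abundant of the 2 tyrosine rows, was higher in 2D particles than in 2D sEV. It had 458, 392 and 297 CPM in 2D supermeres, 182, 152 and 206 CPM in 2D exomeres, and 44.1, 64.5 and 59.0 CPM in 2D sEV. The 3 groups did not overlap, and the order ran from supermeres through exomeres to sEV. Its log2 fold change was 2.23 (SE 0.88, adjusted p 0.093) in supermeres and 0.27 (SE 0.84, adjusted p 1) in exomeres against sEV, so neither passed. The other row that was higher without overlap in both comparisons was Arg-CCG, an arginine tRNA that shares its ends with Arg-TCG. It had 35.9, 43.1 and 51.6 CPM in 2D supermeres, 35.7, 37.1 and 52.5 CPM in 2D exomeres and 32.4, 18.9 and 27.0 CPM in 2D sEV, and it did not pass in either (0.54 and −0.68, adjusted p 1 in both). Of nuclear tRNA counts Tyr-GTA was 13.3%, 11.3% and 15.1% in supermeres, 2.88%, 3.30% and 2.64% in exomeres and 0.0213%, 0.0340% and 0.0266% in sEV. With tRNA totals as library sizes the log2 fold change of Tyr-GTA was 8.92 (adjusted p 2.9e-07) in supermeres and 6.75 (adjusted p 4.7e-05) in exomeres.

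Relative to nuclear tRNA totals, 27 of the 40 rose in 2D exomeres and 33 in 2D supermeres, and 0 fell. These are 67.5% and 82.5% of the 40, and 87.6% and 86.3% of all features rose on that scale. Nuclear tRNA was on average 20.7% of counts in 2D sEV, 0.625% in 2D exomeres and 0.296% in 2D supermeres. Features outside the tRNAs therefore tend to rise on this scale, while the 40 are part of the divisor. The share of all features is thus no background for the 40 here. The median log2 fold changes of the 40 were 3.64 in exomeres and 4.33 in supermeres, against −0.50 and −0.56 for the 9 other anticodons. Of these 9, 2 rose and 1 fell in exomeres on this scale, and 1 rose and 1 fell in supermeres. On the TMM scale 8 of the 9 fell in each comparison.

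In 3D exomeres against 3D sEV, 20 of the 40 fell and 0 rose, where 9.80% of all features fell and 0.271% rose, and the median was −3.08 against −0.43 over all features. Ser-CGA, a serine tRNA, had 4.14, 1.66 and 0.0851 CPM in 3D exomeres and 12.0, 135 and 335 CPM in 3D sEV (−6.12, SE 1.18, adjusted p 3.3e-05). Gln-CTG had 28.1, 31.0 and 172 CPM in exomeres and 44.8, 1615 and 2710 CPM in sEV (−4.27, SE 0.99, adjusted p 0.00067). Ser-AGA had 13.8, 9.81 and 53.7 CPM in exomeres and 35.6, 400 and 952 CPM in sEV (−4.18, SE 0.99, adjusted p 0.00091). Only Ser-CGA of these 3 had no overlap; 3D sEV A was the low sEV library in all 3, and 3D exomere C was the high exomere library for Gln-CTG and Ser-AGA. Over the 40 rows, 8 did not overlap, all lower in exomeres. Thr-TGT, a threonine tRNA, had 525, 413 and 556 CPM in exomeres and 54.6, 689 and 1524 CPM in sEV and did not pass (−0.43, adjusted p 0.88). Relative to tRNA totals 0 of the 40 passed, with 2 at an unadjusted p under 0.05, both higher, where 0.785% of all features rose; DESeq2 called 24 on its own scaling. Without 3D exomere A, 3D exomere B or 3D sEV C, 8 rows were called on the TMM scale, and with library totals 14 fell and 0 rose, where 7.15% of all features fell.

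In 3D supermeres against 3D sEV, 24 of the 40 fell and 0 rose, where 7.33% of all features fell and 0.442% rose. The median of the 40 was −4.20 and that of all features −3.90, so the 40 moved little more than all features. Leu-TAA had 0.290 and 2.66 CPM in supermeres B and C and 16.9, 368 and 681 CPM in 3D sEV (−6.90, SE 1.44, adjusted p 0.0001). iMet had 4.83 and 38.9 CPM in supermeres and 135, 3077 and 5558 CPM in sEV (−6.11, SE 1.22, adjusted p 5.1e-05). Ser-AGA had 3.57 and 5.58 CPM in supermeres and 35.6, 400 and 952 CPM in sEV (−5.97, SE 1.29, adjusted p 0.00021). These 3 did not overlap, and 22 of the 40 rows did not, all lower in supermeres. Ala-TGC, an alanine tRNA, had 692 and 185 CPM in supermeres and 624, 186 and 268 CPM in sEV. It was the 1 row that passed relative to tRNA totals (4.11, edgeR adjusted p 0.046), where 3.17% of all features rose. That test held supermeres B and C only. The TMM count was 3 without 3D supermere B, 11 without supermere C and 14 without 3D sEV C. With library totals 17 fell and 0 rose, where 5.49% of all features fell.

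Most of these tRNAs were higher in vesicles from 3D culture than in vesicles from 2D culture, in 2 of 3 libraries. Of the 40, 23 rose and 0 fell, where 2.91% of all features rose and 0.0428% fell, and the median was 4.62 against −0.77 over all features, and the 9 other anticodons had a median of 0.08. Ile-TAT had 34.7, 1227 and 2246 CPM in 3D sEV and 24.3, 24.01 and 23.7 CPM in 2D sEV (6.48, SE 1.79, adjusted p 0.036). Thr-AGT had 15.0, 649 and 1304 CPM in 3D sEV and 13.2, 14.7 and 17.4 CPM in 2D sEV (6.33, SE 1.14, adjusted p 2e-05). Leu-TAA had 16.9, 368 and 681 CPM in 3D sEV and 13.2, 7.47 and 8.63 CPM in 2D sEV (6.04, SE 1.14, adjusted p 3.3e-05). In all 3, library A of 3D sEV lay near the 2D libraries and B and C far above them. iMet had 135, 3077 and 5558 CPM in 3D sEV and 113, 97.5 and 140 CPM in 2D sEV (5.54, SE 1.03, adjusted p 3e-05), and elongator Met rose with it (5.69, adjusted p 0.0012).

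Over the 40 rows, 35 and 37 were above every 2D sEV library in 3D sEV B and C, and 12 in A, while 24 were below every 2D library in A. CPM did not overlap between the cultures for 14 rows, of which 11 were higher in 3D. The 3 lower ones were Cys-GCA, Gly-TCC and Ile-GAT, of which none passed. Ile-GAT had 10.4, 6.70 and 8.24 CPM in 3D sEV and 61.4, 65.9 and 88.9 CPM in 2D sEV (−2.08, adjusted p 0.28), and Gly-TCC had 256, 652 and 717 CPM in 3D sEV and 1828, 1711 and 2458 CPM in 2D sEV (−0.94, adjusted p 0.69). The effective number of rows, the inverse of the summed squared shares, was 7.54, 20.9 and 21.7 in 3D sEV and 6.94 to 7.25 in 2D sEV, so counts were spread over more tRNAs in 3D sEV B and C. Relative to tRNA totals 16 rose and 0 fell, where 1.43% of all features rose. The TMM count was 12, 11 and 11 without 2D sEV A, B and C and 14 without 3D sEV C. With library totals 5 rose and 0 fell, where 0.742% of all features rose.

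**Figure D4:**
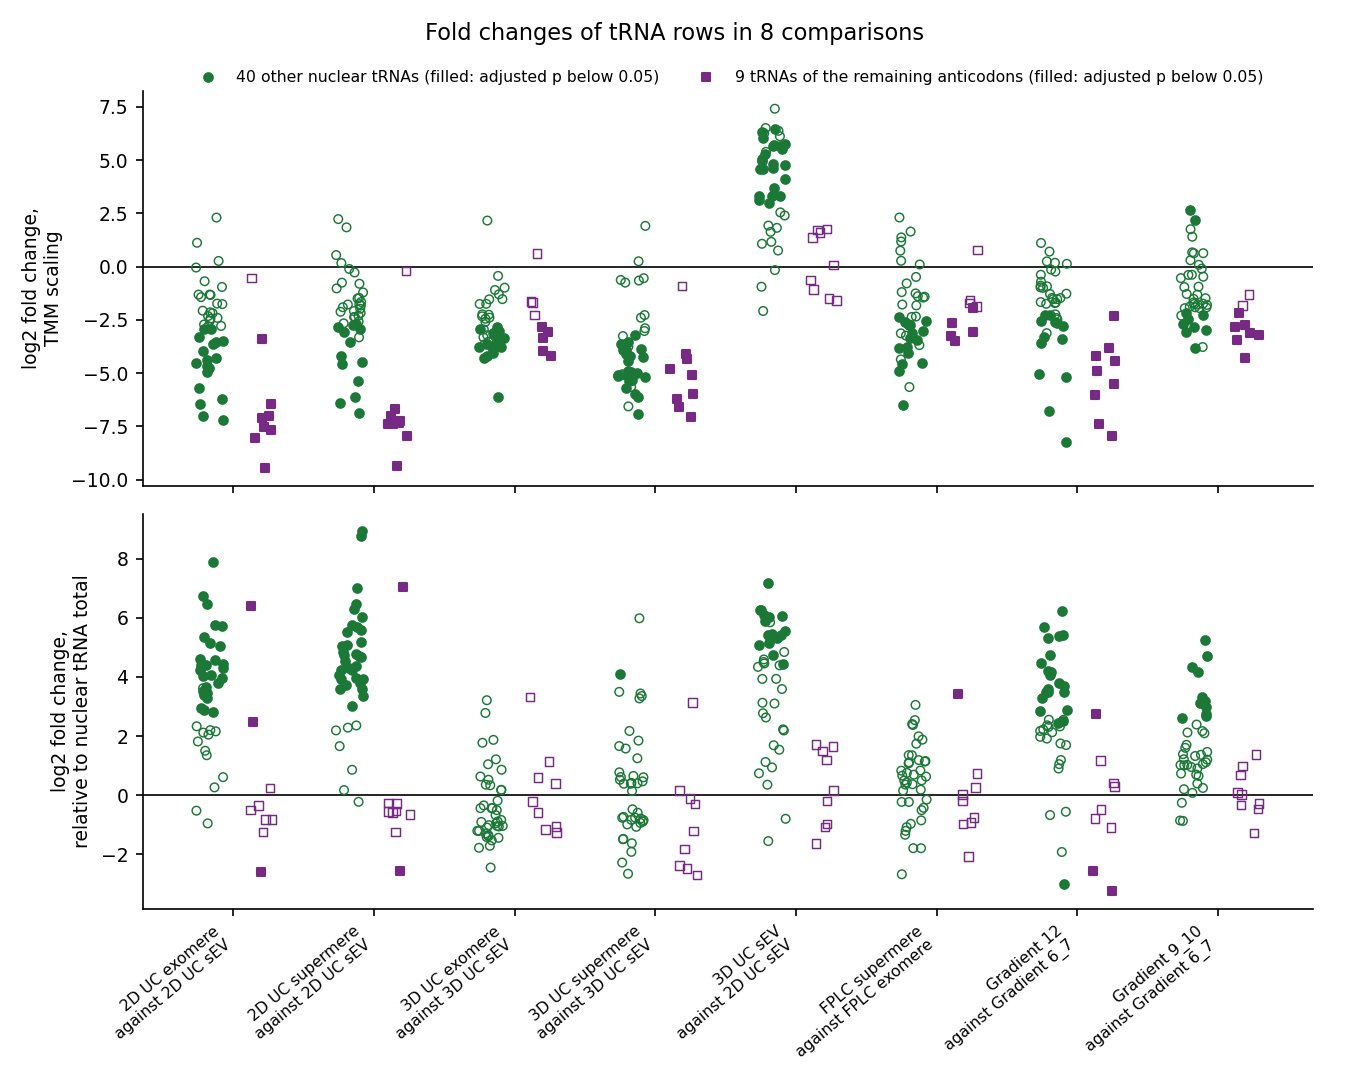
Points give log2 fold changes of the 40 tRNAs (green circles) and of the 9 other anticodons (purple squares) in 8 comparisons, with TMM scaling above and relative to nuclear tRNA totals below; filled points have an adjusted p below 0.05. The 40 lie mostly above 0 in both panels for 3D UC sEV against 2D UC sEV (medians 4.62 and 4.44), and change sides between panels for the 2D particles.

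In FPLC supermeres against FPLC exomeres, 17 of the 40 fell and 0 rose, where 6.69% of all features fell and 2.34% rose, with a median of −2.57 against −1.80 over all features. Arg-ACG had 0.849, 5.48, 1.66 and 6.09 CPM in FPLC supermeres and 7030, 26.2, 18.6 and 16.3 CPM in FPLC exomeres (−6.51, SE 2.07, adjusted p 0.046). Trp-CCA, the tryptophan tRNA, had 1.39, 6.94, 2.48 and 8.79 CPM in supermeres and 3019, 80.4, 56.3 and 127 CPM in exomeres (−4.88, SE 1.55, adjusted p 0.045). Leu-TAA had 0.695, 3.54, 1.79 and 2.71 CPM in supermeres and 1276, 8.01, 18.3 and 13.5 CPM in exomeres (−4.58, SE 0.93, adjusted p 6.9e-05). The groups did not overlap in these 3 rows, nor in 16 of the 40, all lower in supermeres, but exomere A was far above the other 3 exomere libraries. Without exomere A 0 rows passed, with 3 at an unadjusted p under 0.05, all higher in supermeres, and Arg-ACG had a log2 fold change of 0.05 and Leu-TAA one of 0.04; without supermere A, B, C or D the count was 7, 9, 8 or 10. DESeq2 with all libraries called 17 (2 higher, 15 lower), edgeR without a filter 6 and edgeR with a replicate block 10. Relative to tRNA totals 0 passed, with 4 at an unadjusted p under 0.05 (3 higher, 1 lower), where 1.17% of all features rose. With library totals 35 fell and 0 rose, where 57.5% of all features fell. CPM are scaled by library totals too, so the direction of the 16 rows without overlap is not particular to the 40.

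In gradient 12 against gradient 6_7, 13 of the 40 fell and 0 rose, where 7.02% of all features fell and 2.91% rose. The median of the 40 was −1.67. Over all features the median was 0 with TMM, with library totals and with tRNA totals. It did not follow the scaling, so it is no background for the 40, and the reason was not tested. Ile-GAT had 5.08, 10.9, 1.74 and 6.04 CPM in gradient 12 and 3069, 2067, 2735 and 1516 CPM in gradient 6_7 (−8.24, SE 1.013, adjusted p 5.9e-13). Gly-TCC had 24.4, 0.821, 6.74 and 9.07 CPM in gradient 12 and 1779, 890, 2413 and 1918 CPM in gradient 6_7 (−6.79, SE 0.94, adjusted p 1.6e-10). Val-TAC had 108, 9.20, 16.7 and 15.1 CPM in gradient 12 and 2101, 1012, 2723 and 2215 CPM in gradient 6_7 (−5.16, SE 0.86, adjusted p 9.5e-08). None of these 3 overlapped, and no call among them was lost when any 1 library was left out. SeC fell as well (−5.02, adjusted p 7e-06), and it was listed at 0 in gradient 12 B, where the floor of 3 counts is 2.46 CPM. CPM did not overlap for 20 rows, all lower in gradient 12.

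Relative to tRNA totals 21 rows rose and 1 fell in gradient 12, where 36.0% of all features rose and 0.0999% fell. The 1 that fell was Ile-GAT (−2.999, adjusted p 0.04). Thr-AGT rose by 6.24 on this log2 scale (adjusted p 2e-05), while its TMM fold change was 1.11 and did not pass. The TMM count was 6, 6 and 7 without gradient 12 B, C and D, 4 without a filter and 7 with DESeq2, and with library totals 13 fell and 0 rose, where 7.02% of all features fell.

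In gradient 9_10 against gradient 6_7, 2 of the 40 rose and 8 fell, where 7.05% of all features rose and 6.92% fell; the median was −1.60 against 3.35 over all features. The 2 that rose were Ser-CGA and Arg-TCT, each by less than the median of all features. They are a smaller part of the 40 than the 7.05% of all features that rose. Ser-CGA had 152, 1360, 2361 and 270 CPM in 9_10 and 33.1, 18.6, 18.9 and 20.5 CPM in 6_7 (2.64, SE 0.87, adjusted p 0.026). Arg-TCT, an arginine tRNA, had 854, 6169, 11750 and 1423 CPM in 9_10 and 278, 134, 127 and 95.2 CPM in 6_7 (2.18, SE 0.79, adjusted p 0.045). Ser-TGA, the near copy of Ser-CGA, had 1090, 6638, 13302 and 1104 CPM in 9_10 and 315, 165, 180 and 249 CPM in 6_7. Every 9_10 library lay above every 6_7 library in these 3 rows, with B and C highest.

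Those that fell include Gly-TCC, with 946, 1014, 888 and 603 CPM in 9_10 and 1779, 890, 2413 and 1918 CPM in 6_7 (−3.81, SE 0.81, adjusted p 0.00037), and SeC (−3.07, SE 0.87, adjusted p 0.0087). Ile-GAT was called lower too on the TMM scale, and its direction turned with library totals and with tRNA totals. Their CPM ranges overlapped, and the direction of this comparison depends on the scaling. With library totals, which moved the median of all features to 5.88, 14 of the 40 rose and 0 fell, where 50.7% of all features rose; relative to tRNA totals 11 rose and 0 fell, where 50.2% rose. Ser-CGA and Arg-TCT rose on all 3 scales (5.24, adjusted p 0.0031, and 4.72, adjusted p 0.0014, relative to tRNA totals). The median of all features relative to tRNA totals was 4.64, so these rises lay near that of a typical feature. CPM, which are scaled by library totals, did not overlap for 13 rows, all higher in 9_10. With library totals the median of all features was 5.88 and 50.7% rose, so this direction is not particular to the 40. The TMM count was 5 without gradient 6_7 A or D and 4 without 9_10 B or D, of which 3 were higher and 1 lower. Without a filter it was 5, of which 4 were higher and 1 lower.

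tRNA-Ile-GAT, an isoleucine tRNA with 3 loci, differed widely across fractions. It had 9419, 357, 507 and 149 CPM in gradient 9_10, 1516 to 3069 CPM in gradient 6_7, and 61.4 to 88.9 CPM in 2D sEV. It had at most 12.7 CPM in FPLC supermeres, 2.60 to 6.83 CPM in FPLC exomeres, 6.70 to 10.4 CPM in 3D sEV and at most 2.34 CPM in the UC supermeres and exomeres of either culture. Gradient 6_7 and 3D sEV both come from 3D medium. In a comparison added after the values had been seen, gradient 6_7 against 3D sEV, Ile-GAT was higher by 8.10 (SE 1.14, adjusted p 1.22e-09), and 8 rows fell, where 0.328% of all features rose and 7.38% fell. None of the 8 lay below 3D sEV without overlap, and of the 9 calls those of Ile-GAT and iMet were kept with any 1 library left out. With library totals 1 rose and 2 fell, where 0.257% of all features rose and 5.02% fell, and relative to tRNA totals 1 rose and 16 fell, where 0.0856% rose and 13.5% fell. The fold change of Ile-GAT was 7.87 to 8.32 with any 1 library left out, 8.11 (adjusted p 0.000159) with library totals and 6.63 (adjusted p 0.0022) relative to tRNA totals. Ile-AAT had 3885, 2009, 2471 and 1718 CPM in gradient 6_7 and 67.7, 1320 and 2605 CPM in 3D sEV, which overlap. In the same gradient 6_7 libraries Ile-GAT ran close to Ile-AAT, at 3069, 2067, 2735 and 1516 CPM. In gradient 9_10 Ile-AAT had 7345, 3267, 5691 and 807 CPM, close to Ile-GAT in A alone. Whether Ile-GAT and Ile-AAT share reads was not tested. iMet fell in the same comparison (−4.26, SE 0.86, adjusted p 8.9e-05), with 181, 90.2, 146 and 171 CPM in gradient 6_7 and 135, 3077 and 5558 CPM in 3D sEV.

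**Figure D5:**
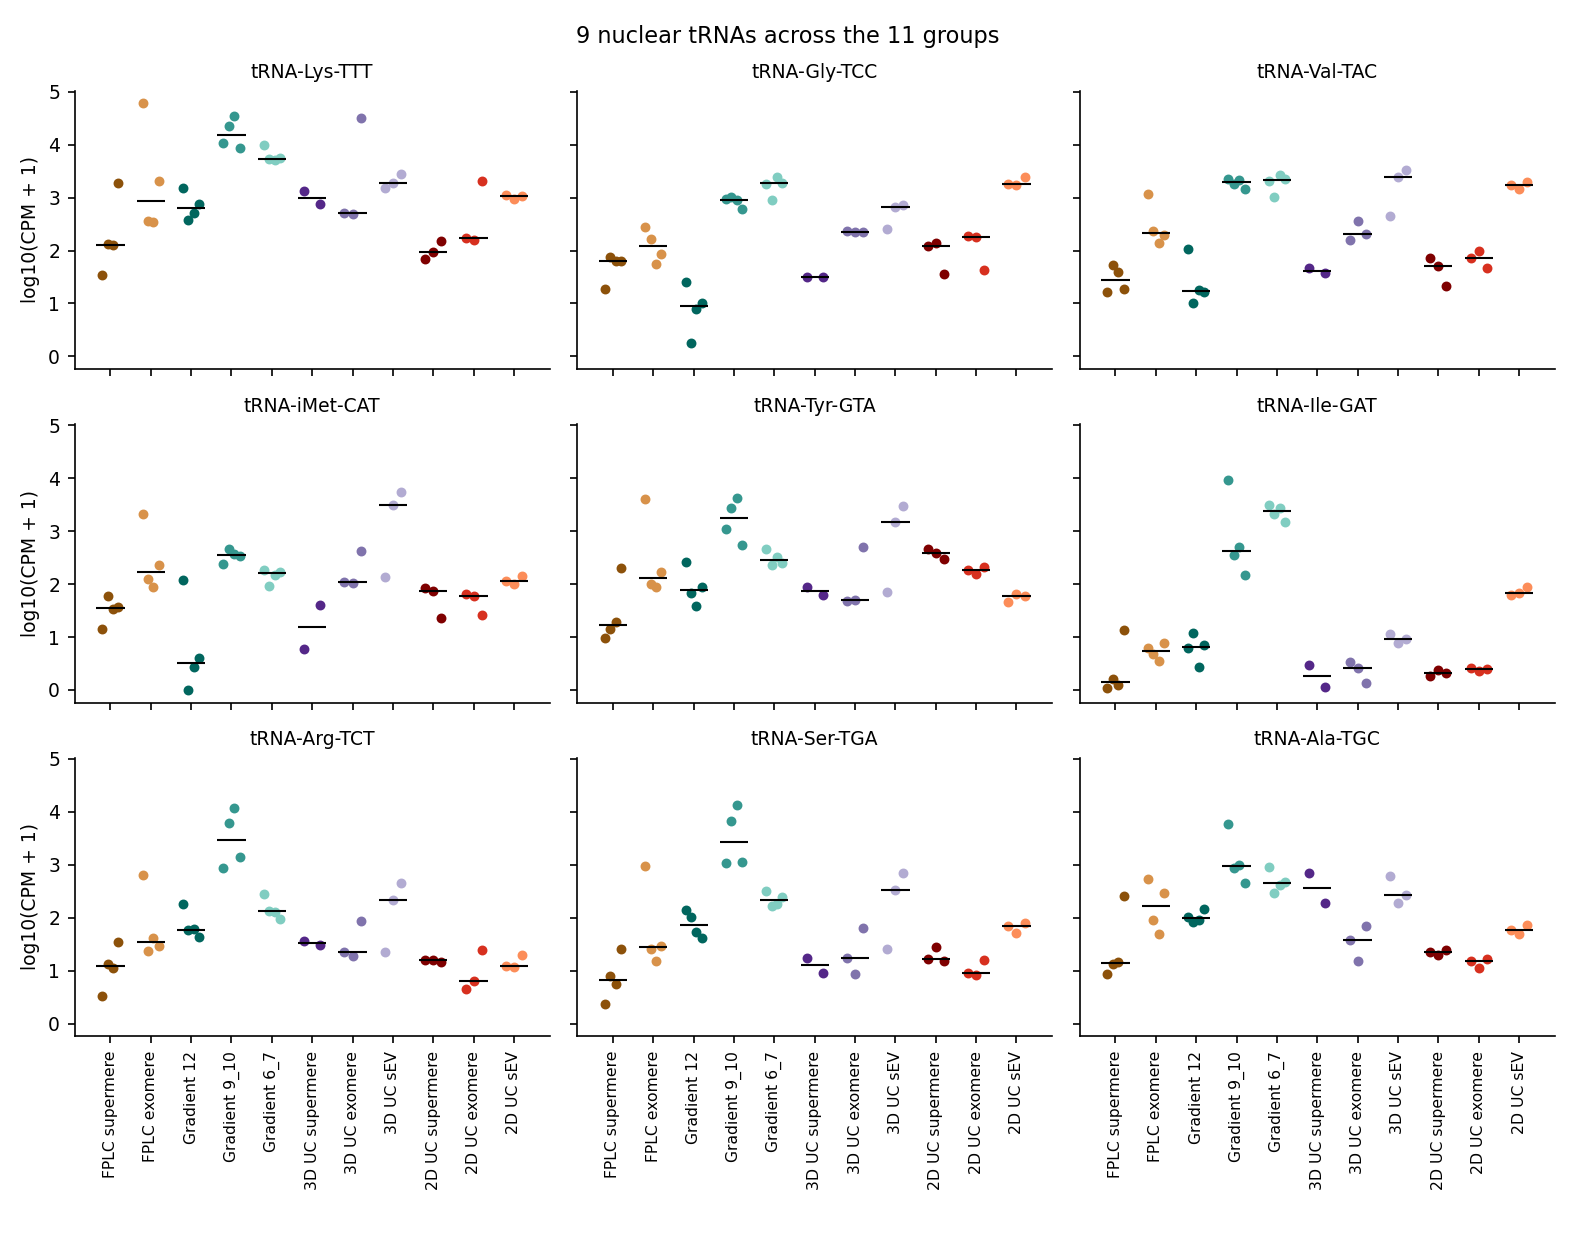
Points give log10(CPM + 1) of 9 tRNAs in each library, and lines the group medians, over 11 groups. Ile-GAT is high in gradient 6_7 (1516 to 3069 CPM) and in 1 library of 9_10, Tyr-GTA is higher in 2D UC supermeres (297 to 458 CPM) than in 2D UC sEV (44.1 to 64.5 CPM), and iMet is high in 2 of 3 libraries of 3D UC sEV.

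Of the rows not yet described, Tyr-ATA, from 1 locus, summed to 184 counts over all libraries and passed in none of the 8 comparisons. Cys-GCA, the cysteine tRNA, had 185, 164 and 109 CPM in 2D supermeres, 114, 79.5 and 107 CPM in 2D exomeres and 725, 573 and 1061 CPM in 2D sEV, and it fell in both 2D comparisons (−2.93, adjusted p 0.016, and −4.40, adjusted p 0.00018). Phe-GAA, the phenylalanine tRNA, had 32.04, 276 and 550 CPM in 3D sEV and 11.5, 15.4 and 22.6 CPM in 2D sEV and rose there without overlap (5.03, adjusted p 0.00024). Asn-GTT, the asparagine tRNA, had 60.1, 1576 and 2638 CPM in 3D sEV and 68.6, 67.3 and 62.3 CPM in 2D sEV and rose (5.30, adjusted p 9.1e-05), although library A lay below the 2D libraries. Pro-TGG, a proline tRNA that shares its ends with the other proline rows, had 11.9, 226 and 492 CPM in 3D sEV and 17.4, 19.2 and 19.6 CPM in 2D sEV (4.57, adjusted p 0.0018).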

How the data were processed

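The authors deposited expected counts per small RNA feature, not scaled between libraries, and 6.71% of the values are not whole numbers (tolerance 1e-06). Per the submitters' processing notes, cutadapt 4.5, FastQC 0.12.1, Bowtie 1.3.1 and GRCh38.p13 were used; the counting tool and annotation are not given in the sources used here. Expected counts were rounded for tests. CPM were computed from the deposited counts over all features of a library, so a level depends on what else a library holds.

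All 38 libraries entered 1 fit of 11 group means with edgeR 4.0.16 (glmQLFit and glmQLFTest, robust) in R 4.3.3, with TMM factors (0.0553 to 13.6) and filterByExpr with a minimum count of 10. This left 7009 features and 27 residual degrees of freedom. The highest TMM factor was that of 3D UC supermere A, and without that library the highest was 8.40. Alternatives were library totals, nuclear tRNA totals, DESeq2 1.42.0 (poscounts), no filter, a replicate block, the near-empty library left out and each library left out. The run with nuclear tRNA totals took only libraries with at least 100 nuclear tRNA counts, which left out 3D UC supermere A. The edgeR step was also run on simulated data, with a lower spread than these data and only large set changes. That run does not tell how the test performs here. Loci and introns come from the deposited table, and neighbouring genes from GENCODE v29.

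Values are given for the 8 most abundant rows, up to 3 rows with the largest increase and decrease among those that passed with at least 50 CPM in the higher group, iMet and SeC, and the most abundant row of each amino acid; other names were chosen after their values were seen. The members and lists were chosen with earlier results of these data known. RPPH1 and RMRP were not found under these names. 1 tRNA sequence is not reported here.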

Additional observations from a re-analysis of the deposited data

Results flagged for a closer look

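The 5 groups of 4 libraries were tested for 1 library far from the others in the share and summed level of the 40 tRNAs and in the 8 most abundant rows, 50 sets of values in all. In 18 sets 1 library stood out. Chance marks about 1 in 20 independent sets, but these sets share libraries, and the 18 values fall in 4 libraries. FPLC supermere D stood above its group in the share of the 40 tRNAs (73.5%), in their summed level (3877 CPM), in Lys-TTT (1846 CPM) and in Tyr-GTA (197 CPM). FPLC exomere A stood above its group in the share (63.7%), the summed level (130911 CPM), Lys-TTT (60781 CPM), Tyr-GTA (4056 CPM), iMet (2132 CPM), Ile-AAT (1283 CPM), Val-TAC (1151 CPM), Ser-TGA (967 CPM) and Arg-TCT (626 CPM). Gradient 12 A stood above its group in Ile-AAT (469 CPM), Arg-TCT (179 CPM), iMet (116 CPM) and Val-TAC (108 CPM). Gradient 6_7 A stood above its group in Lys-TTT (10001 CPM). The UC groups, with 3 libraries each, were not tested in this way.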

How the results depend on the processing

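With library totals the calls among the 40 were 10 in 2D exomeres and 7 in 2D supermeres against sEV, 5 in 3D against 2D sEV, 35 in FPLC supermeres against exomeres (all lower, where 57.5% of all features fell) and 14, all higher, in gradient 9_10 against 6_7. With nuclear tRNA totals they were 27, 33, 0 and 1 in 2D exomeres, 2D supermeres, 3D exomeres and 3D supermeres, 0 in FPLC, 22 in gradient 12 (21 higher, 1 lower) and 11 in gradient 9_10, with the direction turned to higher in 2D, 3D supermeres and both gradient comparisons; in FPLC, where 0 passed, the median turned to 0.57. DESeq2 called 7 in gradient 12. Without a filter the calls were 6 in FPLC, 4 in gradient 12 and 5 in gradient 9_10 (4 higher, 1 lower). The cause was not tested. For DESeq2, no filter, the replicate block and libraries left out, the share of all features called is not given. Whether a changed count there is particular to the 40 was not tested. Leaving out each library in turn gave 11 to 20 calls in 2D exomeres, 8 to 17 in 2D supermeres, 8 to 22 in 3D exomeres, 3 to 27 in 3D supermeres, 11 to 22 in 3D against 2D sEV, 0 to 18 in FPLC, 6 to 18 in gradient 12 and 4 to 8 in gradient 9_10, where 4 remained without 9_10 B or D (3 higher, 1 lower each). The libraries that moved a count most are named with each comparison. Libraries of the same letter were only weakly alike: over 26 same-letter pairs the correlation of deviations ran from −0.063 to 0.135, 5 were over 0.1 and a library correlated best with its own letter in 11. These values do not settle whether letters pair libraries, since deviations are taken over many low-count features in few libraries a group. With a replicate block on the letter the calls were 10 in FPLC, against 17 without it, and 19, 14, 22, 25, 23, 15 and 10 in the other comparisons. Among named rows, with nuclear tRNA totals Leu-AAG turned to 0.27 in 2D exomeres, Ile-GAT to 0.17 and Val-TAC to 0.86 in 2D supermeres; with 1 FPLC library left out, Arg-ACG ran from −6.97 to 0.0546 and Leu-TAA from −4.99 to 0.0390, both turned without exomere A; and Ile-GAT in gradient 9_10 turned to 0.16 with library totals and 0.25 with tRNA totals. Over 27 results for single rows and 339 alternatives, 276 kept direction and call, 56 kept direction and lost the call, and 7 reversed. DESeq2 gave no adjusted p for Ile-GAT in gradient 6_7 against 3D sEV. The share of the 40 without iMet moved by less than 1 SD in every group. In gradient 9_10, whose libraries hold 81079 to 490374 counts, rows under 6.12 to 37.0 CPM were below the floor of 3 counts.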
